A study of Homo sapiens with 8 samples.

Results

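Polyamines are small positively charged molecules that bind nucleic acids and that growing cells need for transcription and translation. The 10 genes described here encode the enzymes that make polyamines (ODC1, AMD1, SRM, SMS), the antizymes OAZ1 and OAZ2 and the antizyme inhibitor AZIN1 that control ODC1 protein, and the enzymes that acetylate and oxidise polyamines (SAT1, SMOX, PAOX). They were chosen by symbol, through the GENCODE identifiers of the deposited count files, which list 60668 genes. All 10 had more than 1 CPM (counts scaled to the size of each library) in at least 4 of the 8 libraries and were among the 15222 genes tested. ODC1 is a textbook target of MYC, the transcription factor that drives the tumours from which D283 MED derives.

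RNA-Seq was done on D283-OMO cells, a medulloblastoma line (D283 Med) transduced with a lentivirus that carries a doxycycline-inducible, FLAG-tagged OMOMYC and selected with hygromycin. OMOMYC is a dominant-negative miniprotein that pairs with MYC and its partners. The libraries compare 4 untreated cultures with 4 cultures in which doxycycline (DOX) induced OMOMYC for 72 h (labelled MYC-inhibited), and both groups carry the transgene. No library of DOX-treated cells without the transgene was analysed here, so that effects of DOX itself and of OMOMYC cannot be told apart in these counts. Whether the line is 1 clone is not given in the sources used here.

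The libraries held between 38390696 and 54020506 counts. Untreated replicate 3 stood apart from the other untreated libraries: it gave the highest or the lowest untreated value in 77.7% of the genes tested and in 9 of the 10 polyamine genes, against 30.3% to 55.8% of genes for the other untreated replicates. Among the DOX-treated libraries, replicate 2 gave the highest or the lowest value in 65.7% of the genes tested and in 5 of the 10 polyamine genes. The other DOX replicates did so in 36.5% to 57.7% of genes. MYC RNA, whose reads cannot be told apart from any of the transgene, was between 880 and 1049 CPM in untreated and between 1047 and 1179 CPM in DOX-treated cells, with a log2FC of 0.26 (SE 0.06, edgeR adjusted p = 0.00237), though the groups overlapped. CAD and NCL, which are known to be activated by MYC, fell with log2FC of -0.48 and -0.44. Of 9 markers of medulloblastoma and neural progenitors, NES, SOX11, MAP2 and TUBB3 rose and OTX2, GABRA5 and IMPG2 fell, all 7 present in every library, while STMN2 and EOMES were too low to be tested. Of 15 markers of other cell types, 13 were below 1 CPM in every library, with MOG at 0 in all 8. The summed level of all 15 was 26.8 to 27.4 CPM in untreated and 23.3 to 27.4 CPM in DOX-treated cells, most of it COL1A1. VWF, a marker of endothelium, fell from 3.26 to 1.24 CPM (log2FC -1.39, edgeR adjusted p = 1.42e-06). Counts on mitochondrial genes made up 4.73% to 5.13% of untreated and 5.70% to 5.95% of DOX-treated libraries, and their part in the results below was not tested.

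MYC and MAX bind the E-box CACGTG, which reads the same on both strands. The windows of RefSeq on GRCh38.p14 from 250 bases before to 50 bases after a transcript start were searched for it, and 10 windows matched 7 of the 10 genes. No window was matched for AZIN1, SMOX and PAOX. Of all 35116 windows, 7.26% held the motif, and of all 27305 genes with a window, 8.77% did. Among the 7 polyamine genes with a window it was found at ODC1 and SRM. These are shown here because their RNA moved in opposite directions (below). ODC1 has 2 windows, and the one at the start at position 10448012 of chromosome 2 held a pair of E-boxes, one beginning 29 bases before the start and the other at position 6 of the transcript. GENCODE 29 places both in an intron of 2 ODC1 transcripts and outside the other 2. The SRM motif begins 199 bases before its start. Capitals mark the motif, and all sequences are on the minus strand, written 5′ to 3′.
ODC1, chr2:10448024-10448053: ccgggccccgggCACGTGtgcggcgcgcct
ODC1, chr2:10447990-10448019: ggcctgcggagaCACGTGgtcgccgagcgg
SRM, chr1:11060025-11060268, upstream of all annotated SRM exons: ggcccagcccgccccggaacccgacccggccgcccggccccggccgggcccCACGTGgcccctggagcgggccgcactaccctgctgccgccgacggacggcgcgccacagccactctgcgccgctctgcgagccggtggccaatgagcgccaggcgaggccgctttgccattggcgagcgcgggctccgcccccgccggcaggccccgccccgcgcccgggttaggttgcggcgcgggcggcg
A match is a run of letters and not a measured binding site.

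Among the 10 genes, 6 were higher with DOX (ODC1, OAZ2, AZIN1, SAT1, SMOX, PAOX) and 2 were lower (SRM, SMS) at an adjusted p below 0.05, while AMD1 and OAZ1 did not pass the test. This is 8 of 10, where 76.6% of all genes tested passed, with 38.5% higher and 38.1% lower, so the number alone does not set these genes apart. None of the 10 passed with an absolute log2FC above 1, which 20.9% of all genes did, 11.0% higher and 9.81% lower. SMOX, just below this limit, passed it in 6 of 17 alternatives. None met the thresholds of the study's methods (adjusted p below 0.001, absolute log2FC above 2), which 7.12% did. The study's results text gives 0.01 for the adjusted p, and none of the 10 genes reached the log2FC limit under either. The median log2FC of the 10 was 0.25, against 0.01 over all genes tested. In 7 genes the groups did not overlap, 5 of them higher with DOX and 2 lower. Over all genes tested, 71.7% did not overlap, 36.3% higher and 35.4% lower. CPM, here and below, are scaled by edgeR's TMM factors, and log2FC, standard errors (SE) and adjusted p are those of the quasi-likelihood fit of edgeR. They give each gene relative to the other RNA of the library, so that a change in RNA per cell cannot be seen.

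The enzymes of synthesis did not move in 1 direction. ODC1 rose 1.25-fold, SRM and SMS went to 0.638 and 0.609 of their untreated level, and AMD1 did not pass the test. ODC1 (ENSG00000115758.13, minus strand of chromosome 2, 10439968 to 10448504 on GRCh38) encodes ornithine decarboxylase, which makes putrescine from ornithine in the first committed step. The untreated replicates gave 235, 245, 248 and 234 CPM, and the DOX-treated ones 288, 316, 293 and 304 CPM. Every DOX-treated library lay above every untreated one, and the means were 241 ± 7.04 and 300.3 ± 12.3 CPM (SD, n = 4 each). The log2FC of ODC1 was 0.32 (SE 0.05, edgeR adjusted p = 5.07e-05). With any 1 of the 8 libraries left out the log2FC of ODC1 stayed between 0.29 and 0.34.

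AMD1 (ENSG00000123505.17, plus strand of chromosome 6, 110874770 to 110895713) encodes S-adenosylmethionine decarboxylase, which supplies the aminopropyl group for the later steps. Its untreated replicates gave 100.4, 101, 93.2 and 98.2 CPM, and its DOX-treated ones 95.1, 99.4, 99.6 and 94.4 CPM. The groups overlapped, and the log2FC was -0.02 with a 95% interval from -0.12 to 0.08 (edgeR adjusted p = 0.737). Scaling by library size only, which raised the median log2FC of all genes by 0.13, turned the log2FC of AMD1 to 0.11 (edgeR adjusted p = 0.0576).

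SRM (ENSG00000116649.10, minus strand of chromosome 1, 11054584 to 11060024) encodes spermidine synthase, which turns putrescine into spermidine. It stood at 51.9, 51.0, 61.5 and 52.5 CPM in the untreated and at 34.4, 29.03, 36.0 and 38.7 CPM in the DOX-treated replicates. Untreated replicate 3 was the highest and DOX replicate 2 the lowest, and the groups did not overlap. The log2FC of SRM was -0.65 (SE 0.09, edgeR adjusted p = 3.11e-05). Leaving out 1 library at a time gave log2FC between -0.71 and -0.58.

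SMS (ENSG00000102172.16, plus strand of chromosome X, 21940573 to 21994835) encodes spermine synthase, which turns spermidine into spermine. Its untreated replicates gave 111, 120, 130.1 and 115 CPM, and its DOX-treated ones 72.4, 72.2, 71.6 and 73.4 CPM. The DOX-treated libraries lay within 2 CPM of each other, and all were below the untreated ones. The log2FC of -0.72 (SE 0.05, edgeR adjusted p = 1.65e-07) was the largest fall among the 10 genes. Only 15.2% of all genes tested had a lower log2FC or the same one.

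**Figure D1:**
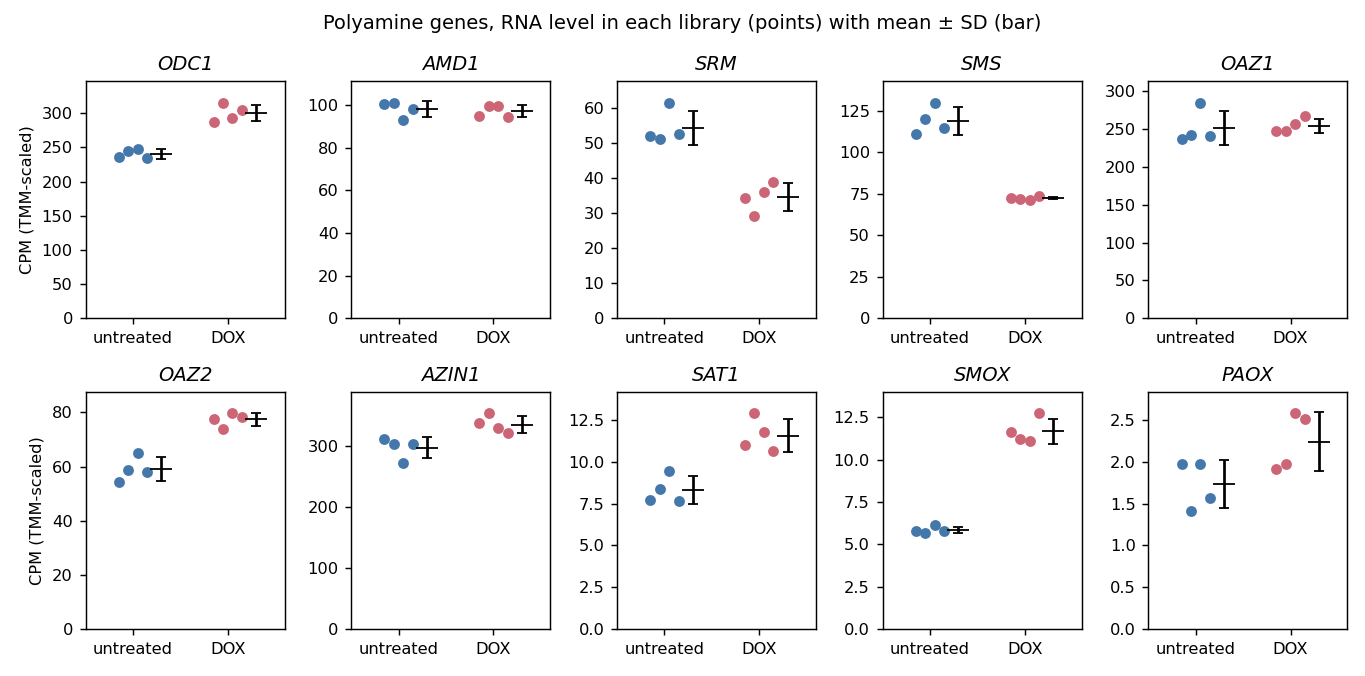
RNA level of the 10 polyamine genes in CPM scaled by TMM (vertical axes, each from 0), with 1 point per library for 4 untreated and 4 DOX-treated replicates and mean ± SD as bars. The groups are apart for ODC1, SRM, SMS, OAZ2, AZIN1, SAT1 and SMOX, and overlap for AMD1, OAZ1 and PAOX.

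Antizymes bind ODC1 protein and send it to the proteasome without ubiquitin, and they are made by a ribosomal frameshift that polyamines favour. RNA levels therefore do not give the amount of antizyme protein. OAZ2 rose and OAZ1 did not pass the test. OAZ1 (ENSG00000104904.12, plus strand of chromosome 19, 2269509 to 2273490) gave 237, 242, 285 and 241 CPM in untreated and 247, 248, 256 and 267 CPM in DOX-treated replicates. Untreated replicate 3 was above all other libraries, and the means of 251 ± 22.8 and 255 ± 9.34 CPM (SD, n = 4 each) differed by less than this spread. The log2FC of OAZ1 was 0.02, with a 95% interval from -0.12 to 0.16 (edgeR adjusted p = 0.784), and it took values from -0.02 to 0.08 with 1 library left out at a time. By library size only it was 0.15 (edgeR adjusted p = 0.0322), close to the shift of 0.13 that this scaling gave to the median gene. OAZ2 (ENSG00000180304.14, minus strand of chromosome 15, 64687573 to 64703281) stood at 54.1, 58.8, 65.1 and 58.1 CPM in untreated and at 77.7, 74.0, 79.7 and 78.3 CPM in DOX-treated replicates. No untreated library reached the lowest DOX-treated one. Its log2FC was 0.39 (SE 0.06, edgeR adjusted p = 6.13e-05).

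AZIN1 (ENSG00000155096.14, minus strand of chromosome 8, 102826357 to 102893864) encodes antizyme inhibitor 1, a relative of ODC1 without decarboxylase activity that binds antizyme and so spares ODC1. Its untreated replicates gave 311, 304, 272 and 304 CPM and its DOX-treated ones 337, 354, 330.0 and 321 CPM. Here untreated replicate 3 was the lowest library, and untreated replicate 1 came within 10 CPM of DOX replicate 4. The log2FC was 0.17 (SE 0.05, edgeR adjusted p = 0.0112), the smallest among the genes that passed. It lay between 0.13 and 0.19 with 1 library left out at a time, and the adjusted p stayed at or below 0.0399 in all 17 alternatives tried.

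All 3 catabolic enzymes passed the test as higher with DOX, where 38.5% of all genes tested did, but the groups were apart in only 2 of them, since those of PAOX overlapped. They had the lowest levels per kb of exon among the 10 genes. SMOX (ENSG00000088826.18, plus strand of chromosome 20, 4120980 to 4187747) encodes spermine oxidase, which turns spermine back into spermidine and releases hydrogen peroxide. It gave 5.80, 5.69, 6.14 and 5.76 CPM in untreated and 11.6, 11.2, 11.1 and 12.7 CPM in DOX-treated replicates. No libraries of the 2 groups came near each other, with a fold of 1.998 and a log2FC of 0.998 (SE 0.07, edgeR adjusted p = 8.74e-08). This was the largest change of the 10 genes, and 79.1% of all genes tested changed by as much or less in absolute log2FC. SAT1 (ENSG00000130066.16, plus strand of chromosome X, 23783173 to 23786226) encodes spermidine/spermine N1-acetyltransferase, which marks polyamines for export or oxidation. It stood at 7.71, 8.36, 9.47 and 7.69 CPM in untreated and at 11.0, 12.9, 11.8 and 10.6 CPM in DOX-treated replicates. The groups did not overlap, and the log2FC was 0.48 (SE 0.09, edgeR adjusted p = 0.000366).

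PAOX (ENSG00000148832.16, plus strand of chromosome 10, 133379234 to 133391694) encodes the peroxisomal oxidase of acetylated polyamines. Its 8 libraries held only between 70.4 and 132 counts each. The untreated replicates gave 1.98, 1.41, 1.97 and 1.57 CPM and the DOX-treated ones 1.91, 1.97, 2.58 and 2.51 CPM. DOX replicates 1 and 2 lay within the untreated range. The log2FC was 0.37 (SE 0.15), with an adjusted p of 0.0425 from edgeR and 0.0507 from DESeq2, and a two-sided exact permutation test of 4 against 4 libraries gave p = 0.171. The call was lost without untreated replicate 2 (log2FC 0.28, edgeR adjusted p = 0.135), untreated replicate 4 (0.32, 0.111), DOX replicate 3 (0.30, 0.127) or DOX replicate 4 (0.32, 0.108). Without PAOX, 5 of the 10 genes were higher.

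**Figure D2:**
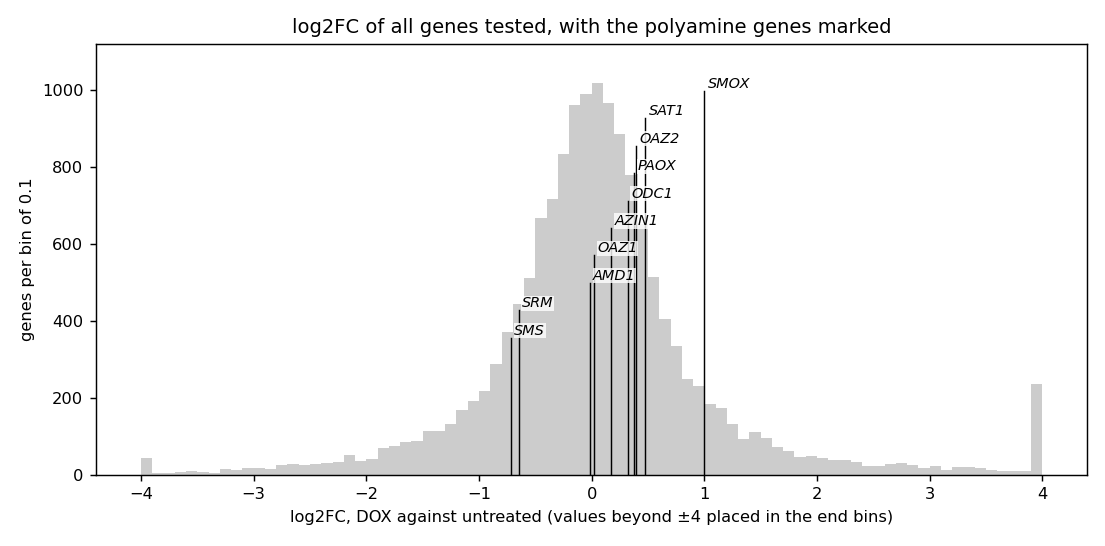
Histogram of the log2FC (DOX against untreated) of the 15222 genes tested, in bins of 0.1 with values beyond 4 in the end bins, and a line at each polyamine gene. SMS and SRM lie to the left of the peak, AMD1, OAZ1 and AZIN1 near it and SMOX farthest to the right, and no polyamine gene lies in the tails.

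Ratios within a library do not depend on the scaling between libraries. ODC1 and OAZ1 had nearly equal CPM, not divided by length, in untreated cells, with log2 ODC1/OAZ1 of -0.01, 0.02, -0.20 and -0.04. With DOX the log2 ratios were 0.22, 0.35, 0.20 and 0.19, so that all 4 lay above the untreated ones, with means of -0.06 ± 0.10 and 0.24 ± 0.08 (SD, n = 4 each). The log2 ratio of SRM to SMS was -1.14 ± 0.07 in untreated and -1.08 ± 0.17 in DOX-treated cells (SD, n = 4 each), and the groups overlapped. The same held for SAT1/ODC1, at -4.86 ± 0.10 and -4.70 ± 0.10, and for AZIN1/OAZ1, at 0.25 ± 0.21 and 0.40 ± 0.11 (SD, n = 4 each). No test was made of the ratios.

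**Figure D3:**
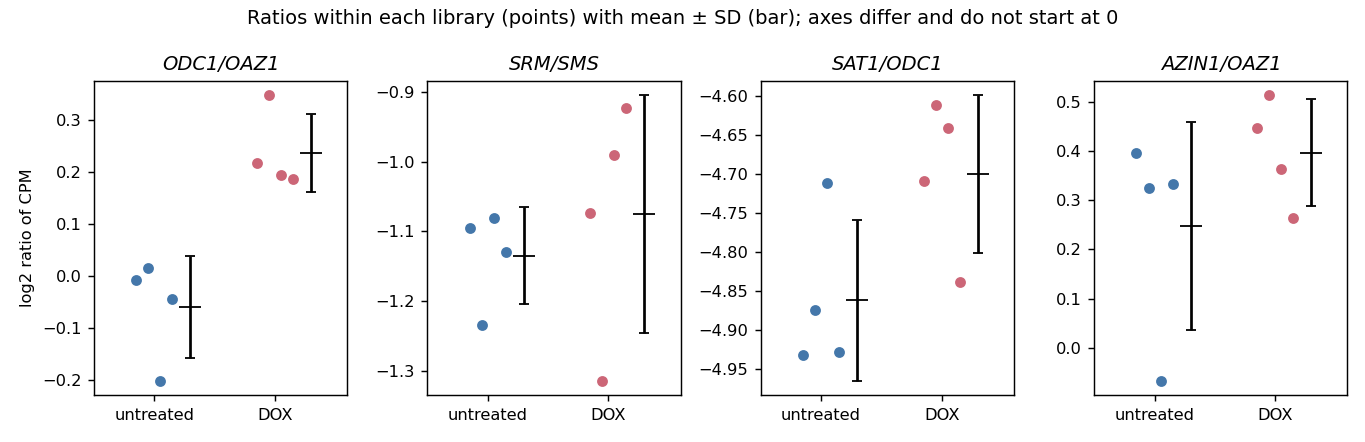
Log2 ratios of the CPM of gene pairs within each library (vertical axes, which differ and do not start at 0), with 1 point per library and mean ± SD as bars, for 4 untreated and 4 DOX-treated replicates. ODC1/OAZ1 is higher in every DOX-treated library, and the groups overlap for SRM/SMS, SAT1/ODC1 and AZIN1/OAZ1.

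Levels of different genes were compared per kb of exon, with the union of the exons of GENCODE 29. In untreated cells ODC1 was the highest, at 81.1 ± 2.37 CPM per kb, followed by OAZ1 at 73.2 ± 6.62 CPM per kb (SD, n = 4 each), and the libraries of this pair overlapped. SMS followed at 55.1, AZIN1 at 46.3, SRM at 28.6, AMD1 at 14.0, OAZ2 at 7.69, SAT1 at 3.33, SMOX at 1.98 and PAOX at 0.761 CPM per kb, with no overlap between neighbours in this order. With DOX the order differed in 1 place, AZIN1 at 52.2 ± 2.18 above SMS at 33.5 ± 0.356 CPM per kb (SD, n = 4 each). The union length is 3436 bases for OAZ1 and 1148 bases with GENCODE's basic transcripts. With basic lengths OAZ1 came first in both groups, at 219 and 222 CPM per kb, and OAZ2 moved above AMD1. With DOX, basic lengths also put OAZ2 (40.0) above SMS (39.4) and AMD1 (27.9) above SRM (27.3 CPM per kb), so that the order beyond the lowest 3 genes depends on the length used. SAT1, SMOX and PAOX were the lowest 3 under both.

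RSEM divides reads that match several genes, and this touched some of the 10 genes. The expected counts of ODC1, SRM, SAT1, SMOX and AZIN1 were whole numbers in all 8 libraries, which shows no sign of shared reads. SMS, OAZ1 and PAOX had fractional counts in all 8 libraries, OAZ2 in 7 and AMD1 in 2. PAOX shares 158 exonic bases with AL360181.3 on the same strand, which had between 220 and 256 counts per library. Of 10 annotated pseudogenes of ODC1, AMD1, SRM, SMS and OAZ1, 5 had no count, and the largest count of any in a library was 15, of ODCP, against at least 10447 of ODC1. On the opposite strand, OAZ1 shares 236 exonic bases with JSRP1 (at most 34.5 counts) and AZIN1 shares 344 with AZIN1-AS1 (at most 79 counts). OAZ2 shares 554 with AC100830.3, also on the opposite strand (at most 15.2 counts). The strand setting of the counting is not given in the sources used here.

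The wider pathway was followed with 38 further genes for the supply of precursors, polyamine transport and hypusine, of which 27 were tested. Of the 27, 11 were higher with DOX, 12 were lower and 4 did not pass, against a background of 76.6% passing. Their median log2FC was -0.10, and the largest changes were in the supply of ornithine and of S-adenosylmethionine. Passing the thresholds of the study's methods were 2 of the 27, ARG2 and MAT1A, beside 7.12% of all genes. Of these, MAT1A was tested at all only through its DOX-treated libraries, where it is high (below).

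ARG2 (ENSG00000081181.8), the mitochondrial arginase that makes ornithine, the substrate of ODC1, fell most. It stood at 264, 254, 284 and 269 CPM in untreated and at 40.7, 52.9, 40.0 and 47.5 CPM in DOX-treated replicates, a log2FC of -2.57 (SE 0.09, edgeR adjusted p = 1.95e-10). The groups were far apart. Its counts were fractional in every library. Of the 6 tested genes of arginine, ornithine and agmatine supply, 3 were higher, 2 lower and 1, the arginine transporter SLC7A1, did not pass (log2FC -0.10, edgeR adjusted p = 0.21). Over all genes tested, 38.5% were higher and 38.1% lower, so these numbers alone do not set the 6 genes apart. SLC7A2, another transporter of cationic amino acids, rose with a log2FC of 0.84, as did SLC25A15, the mitochondrial ornithine carrier (0.45), and OAT, ornithine aminotransferase (0.29), while ALDH18A1, which starts proline and ornithine synthesis from glutamate, fell (-0.28).

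All 8 genes of methionine supply and salvage passed, 3 higher and 5 lower, against 38.5% higher and 38.1% lower over all genes tested. MAT2A and MAT2B, the catalytic and regulatory subunits of the S-adenosylmethionine synthetase of most tissues, fell with log2FC of -0.48 and -0.53. MAT2A went from 755 ± 46.9 to 542 ± 13.8 CPM (SD, n = 4 each). MAT1A, the form known from liver, rose from 0.735, 1.06, 0.894 and 0.874 CPM in untreated to 5.24, 4.98, 6.10 and 4.997 CPM in DOX-treated replicates, a log2FC of 2.58 (SE 0.13, edgeR adjusted p = 4.92e-09). No untreated library of MAT1A came near the DOX-treated ones. Among the untreated libraries only replicate 2 was above 1 CPM, so that MAT1A passed the filter through its DOX-treated libraries. In the salvage of methylthioadenosine, the by-product of SRM and SMS, MTAP (0.17) and APIP (0.49) were higher, and MRI1 (-0.61), ENOPH1 (-0.25) and ADI1 (-0.45) were lower in log2FC.

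Among the 5 tested transport genes, 3 were higher and 2 lower, against 38.5% higher and 38.1% lower over all genes tested. ATP13A2, which exports polyamines from lysosomes, fell from 74.0 ± 3.90 to 40.9 ± 3.20 CPM (SD, n = 4 each), which is -0.85 as log2FC (SE 0.06, edgeR adjusted p = 1.55e-07). Its relative ATP13A3 rose (log2FC 0.48), as did SLC18B1, a vesicular polyamine transporter (0.77), and SLC47A1, an exporter of organic cations (0.15), and SLC3A2, the heavy chain of several amino acid transporters, fell (-0.38). Spermidine is the donor of hypusine, a modified lysine that only EIF5A and EIF5A2 carry. DHPS, which starts the modification, fell (log2FC -0.52), and DOHH, which ends it, did not pass (0.15, edgeR adjusted p = 0.11). EIF5A fell (-0.20) while EIF5A2 rose from 5.87 ± 0.652 to 14.4 ± 0.859 CPM (SD, n = 4 each), which is 1.29 as log2FC (SE 0.09, edgeR adjusted p = 6.01e-08).

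The relatives of the 10 genes had low levels, apart from SAT2. SAT2, named for its likeness to SAT1, stood at 22.1, 23.1, 30.6 and 25.5 CPM in untreated and at 41.4, 47.1, 45.0 and 48.3 CPM in DOX-treated replicates. All DOX-treated libraries were above the untreated ones, and the log2FC was 0.84 (SE 0.09, edgeR adjusted p = 5.87e-06). SATL1 fell (log2FC -0.60, edgeR adjusted p = 0.00716) from 1.47 ± 0.292 to 0.968 ± 0.137 CPM (SD, n = 4 each). Its counts were fractional and lay between 36.4 and 91.0 per library. All untreated libraries of SATL1 were above 1 CPM and DOX replicates 3 and 4 below it. SATL1 thus passed the filter through its untreated libraries, where it is higher. OAZ3, the antizyme of the testis, and AZIN2 did not pass, at log2FC of -0.13 and -0.02. In the E-box search, 6 of the 32 further pathway genes with a window held the motif, beside 8.77% of all 27305 genes with a window. They were ALDH18A1, MRI1, ENOPH1 and ADI1, which fell, EIF5A2, which rose, and DOHH, which did not pass.

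**Figure D4:**
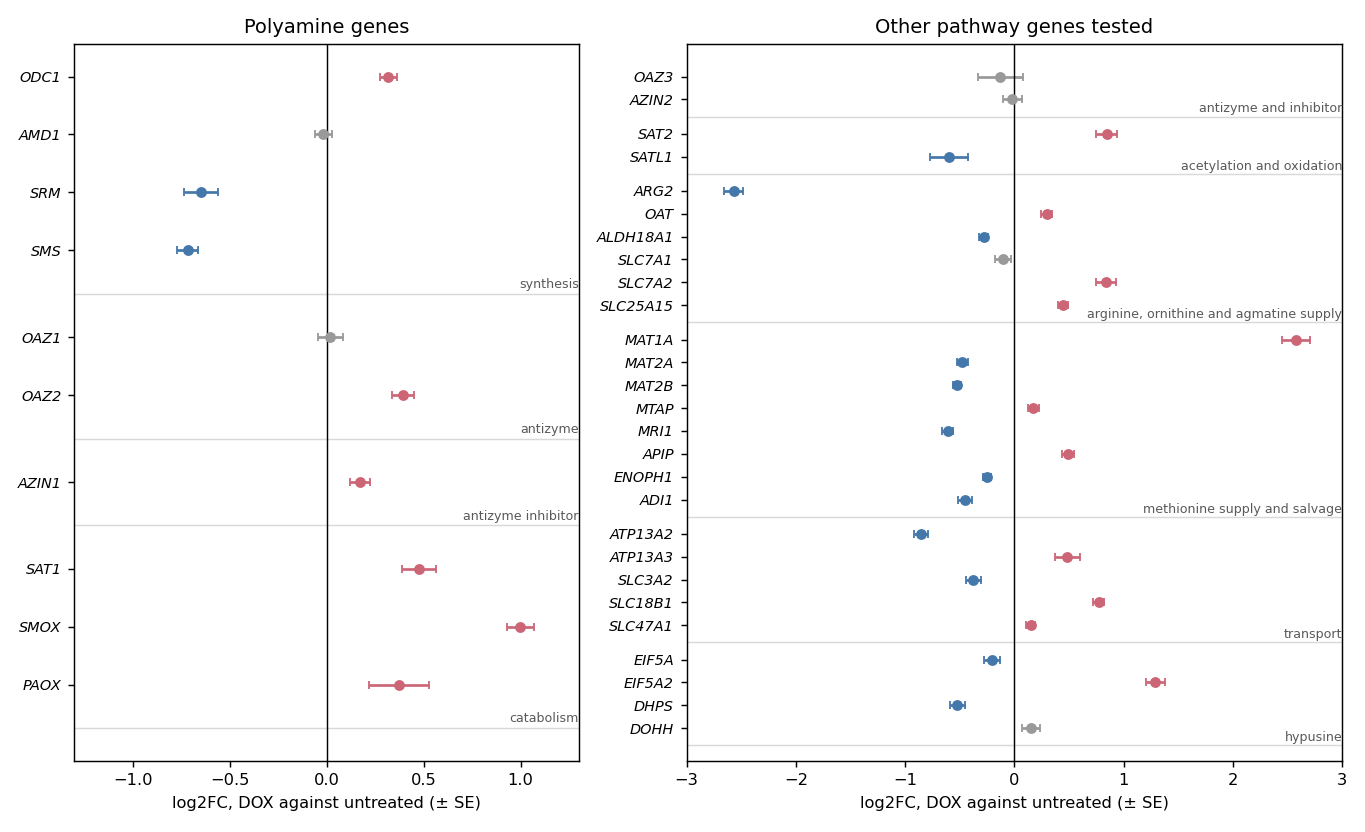
Log2FC with SE (horizontal axis, DOX against untreated) of the 10 polyamine genes (left) and of the 27 tested genes of the wider pathway (right, on a wider scale), grouped by role, in red where higher and in blue where lower at an adjusted p below 0.05 and in grey otherwise. SMOX is farthest right and SMS farthest left on the left side, and MAT1A and ARG2 are the extremes on the right side.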

How the data were processed

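PolyA+ RNA of 4 untreated and 4 DOX-treated D283-OMO cultures was sequenced as stranded paired libraries. The authors used Trim Galore for trimming, STAR for alignment (GRCh38, GENCODE 32) and RSEM for quantification, and deposited expected counts per gene, not normalized. Division of multi-mapping reads is thus part of the values. Tool versions are not given in the sources used here. Titles gave the groups. The study calls the replicates independent biological ones.

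Expected counts were rounded. Genes over 1 CPM in 4 or more libraries were tested with edgeR 4.0.16 in R 4.3.3 (TMM, quasi-likelihood test, Benjamini-Hochberg over all 15222 genes, no covariates), and figures used Python 3.11.15. SE is the absolute log2FC over the square root of F. On simulated data, 196 of 200 genes with a planted log2FC of 1 in either direction were recovered, with 13 false calls among 15222 genes. The simulation took its spread from these data. It planted no smaller change and changed few genes, so that it does not test calls at smaller log2FC or the scaling. Symbols, exons and coordinates came from GENCODE 29, also on GRCh38, which holds 58561 of 60668 identifiers. Replicate numbers are shared by both groups. Deviations of same-numbered libraries from their group means correlated between -0.18 and 0.24, so no block was used. Alternatives were other scalings, tests (DESeq2 1.42.0), filters, a block, a stricter threshold and each library left out.

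Members and lists were chosen with earlier results of these data known. Named were the 10 genes, and of the pathway list those with an adjusted p below 0.05 and absolute log2FC above 1 or the largest change of their role. Others of the list are named beyond this rule, to complete the account of each role. Intervals cover the spread between libraries only, and among the 10 genes depth limits PAOX most.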

Additional observations from a re-analysis of the deposited data

Results flagged for a closer look

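In each of 40 groups of 4 values, the highest and the lowest were set against the critical value of Dixon at 95%, which marks about 2 such groups by chance. It marked 3, all in untreated replicate 3. SRM stood at 61.5 CPM there, against 51.0 to 52.5 CPM in the remaining untreated replicates. OAZ1 stood at 285 CPM, against 237 to 242 CPM, and log2 AZIN1/OAZ1 was -0.066, against 0.33 to 0.40. Without this library the log2FC of SRM was -0.59 and that of OAZ1 was 0.08, and neither call changed.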

How the results depend on the processing

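Over 17 alternatives, SRM and SMS kept their direction and their call, as did ODC1 (log2FC 0.29 to 0.45), OAZ2, SAT1 and SMOX (0.95 to 1.12). Calls of PAOX were lost with DESeq2 (0.37), no filter (0.35) and filterByExpr (0.36), and at a threshold of 0.01 (0.37), and with 1 library left out its log2FC ran from 0.28 to 0.45. AZIN1 (0.17) was lost only at a threshold of 0.01, and ran from 0.13 to 0.19 with 1 library left out. Scaling by library size only moved the median log2FC of all genes by 0.13 and the split of calls to 7157 higher and 4715 lower (60.3% higher, against 50.3%). It turned AMD1 to 0.11 and brought OAZ1 past the threshold at 0.15. OAZ1 was -0.0083 with no filter and ran from -0.017 to 0.082 with 1 library left out, and OAZ3 ran from -0.28 to 0.014. The number of polyamine genes past an absolute log2FC of 1 was 1 (SMOX) by library size only and with a filter of more than 4 libraries, and ran from 0 to 1 with 1 library left out. The causes were not tested.

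Same-numbered libraries had correlated deviations in 3 of 4 numbers only, so the numbers were not taken as pairs. Libraries of different number also correlated, as untreated replicate 3 did with DOX replicate 4 (0.35) and DOX replicate 2 (-0.29), beyond its 0.24 with DOX replicate 3. With a replicate block, 11805 genes passed, against 11661, with 11553 shared, and the log2FC of ODC1 was 0.32 and that of SMOX 0.996, and no call among the 10 genes changed.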

Other observations

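The genes whose log2 CPM over the 8 libraries, centred on each gene's mean, lay nearest to those of ODC1 among 15121 others were TUFT1, CCDC25, SCFD1, VPS11 and ZNF330, with root mean square distances between 0.018 and 0.028. Nearest to SMOX were CD276, TMEM206, AP2A2, PLIN5 and LZTS3, at distances between 0.047 and 0.059. The distances were taken over all 8 libraries, so that the difference between the groups enters them, and its part was not measured. They are descriptions only.

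Of the 38 further pathway genes, 11 were below the filter and had no test. SLC12A8 had 1 or 2 counts in each untreated and between 19 and 28 counts in each DOX-treated library. SLC22A3 had no count in untreated and between 1 and 4 counts in DOX-treated libraries. SLC22A2 had no count in any library. ARG1, the arginase of liver, had at most 3 counts in untreated and at most 11 in DOX-treated libraries.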
